A study of Rattus norvegicus with 110 samples.

Results

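The genes Fkbp5, Tsc22d3, Klf9, Per1 and Tat, which glucocorticoid hormones induce, Tat chiefly in the liver, were followed by carbon tetrachloride dose, by ancestry and by organ. Their Ensembl identifiers (ENSRNOG00000022523.5, ENSRNOG00000056135.1, ENSRNOG00000014215.2, ENSRNOG00000007387.7 and ENSRNOG00000016348.4) were read from a supplementary gene list of the study that pairs symbols with identifiers. They are 5 of the 31998 gene identifiers in the count tables, and all 5 had counts enough to be tested in both organs. Liver RNA came from 83 Sprague Dawley males of the F2 generation and kidney RNA from the 27 of these that had received vehicle. All F2 males were gavaged 3 times a week for 39 days at 0.5 mL/kg with olive oil alone (vehicle), with 8% CCl4 in olive oil (low dose) or with 50% CCl4 in olive oil (high dose). CCl4 is a solvent that injures the hepatocytes around the central veins and, when given repeatedly, scars the liver. Males of cohort A had no treated ancestor, those of cohort B a CCl4-treated F1 sire, those of cohort C a treated F0 grandsire and those of cohort D both. The F0 effect below therefore sets cohorts C and D against A and B, and the F1 effect cohorts B and D against A and C. Each of the 12 liver groups and 4 kidney groups held 7 males, apart from cohort C vehicle with 6, and the males descended from 17 F0 sires through 34 litters. Animals were fasted overnight and killed 24 h after the last dose on 4 necropsy dates (24, 23, 12 and 24 males), each of which held males of every group. The time of day of each necropsy is not given in the sources used here.

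Glucocorticoids, corticosterone in the rat, bind a receptor that moves to the nucleus and raises the transcription of genes with receptor sites in or near them. Their level in blood follows the time of day, fasting and stress, so genes of this kind differ between animals sampled at different moments. In the liver they promote the breakdown of amino acids and the release of glucose. Fkbp5 encodes a co-chaperone that lowers the receptor's affinity for its hormone, and Tsc22d3 (Gilz) a leucine zipper protein that damps inflammatory signalling. Klf9 encodes a zinc finger transcription factor, Per1 a repressor of the circadian clock, and Tat tyrosine aminotransferase, the first enzyme of tyrosine breakdown and a long used marker of the hormone's action on hepatocytes.

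A liver library held between 31638559 and 51343589 estimated counts and a kidney library between 21961746 and 35055218. One vehicle liver of cohort C stood apart from the other vehicle livers, at a distance of 43.06 from the median on the first principal component. The next library lay at 13.73. Printed ranges include the outlying liver, and some results are given without it too. The organ labels could be checked only in part: of the 6 kidney markers listed, 2 had an identifier, and both Lrp2 and Nphs1 were lower in liver (liver minus kidney -7.19 and -4.97 on the log2 scale). None of the 6 hepatocyte markers had one, nor any of the 9 genes of the receptor and of steroid supply. Adgre1, a macrophage gene and the one of 5 leukocyte markers with an identifier, was higher at the high dose by 0.39 on the log2 scale (SE 0.10, adjusted p = 5.77e-04), and its part in the results below was not tested. In bulk tissue, fewer cells of a type and less RNA per cell cannot be told apart.

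RefSeq (build GRCr8) lists 7 promoter windows for the 5 genes, 3 of them at separate starts of Tsc22d3, and each spans 250 bases before to 50 after a transcription start. The 250 bases before the start are printed 5′ to 3′ for a start of Tsc22d3 (X:109010035-109010284, minus strand) and for Per1 (10:54304126-54304375, plus strand), whose levels moved together most closely, and for Klf9 (1:230126396-230126645, plus strand), whose level differed most clearly by dose. Capitals mark TATAAA and TGACG, the first letters of the full cAMP response element.
Tsc22d3: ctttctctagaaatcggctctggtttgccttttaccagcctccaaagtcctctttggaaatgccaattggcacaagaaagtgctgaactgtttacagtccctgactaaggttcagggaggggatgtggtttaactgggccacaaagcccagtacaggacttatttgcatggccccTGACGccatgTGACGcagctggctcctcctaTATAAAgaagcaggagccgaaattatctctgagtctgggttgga
Per1: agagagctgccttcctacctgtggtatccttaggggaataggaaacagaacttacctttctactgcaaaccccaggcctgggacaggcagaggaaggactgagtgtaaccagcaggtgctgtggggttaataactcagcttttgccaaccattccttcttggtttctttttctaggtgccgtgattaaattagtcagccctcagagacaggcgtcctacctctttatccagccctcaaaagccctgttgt
Klf9: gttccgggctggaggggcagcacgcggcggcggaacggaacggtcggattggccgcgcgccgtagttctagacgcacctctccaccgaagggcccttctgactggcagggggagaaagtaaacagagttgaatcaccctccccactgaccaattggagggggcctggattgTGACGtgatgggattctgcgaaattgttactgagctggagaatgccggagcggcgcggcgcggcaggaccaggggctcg
Both strands of the 7 windows were searched. The glucocorticoid receptor palindrome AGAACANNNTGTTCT, its core GNACANNNTGTNC and its single arm TGTTCT matched none of them, and they match 0.0149%, 0.439% and 20.7% of all 33469 rat windows. The E-box CACGTG of the clock (6.42% of windows) and the full element TGACGTCA (1.83%) matched none either. TGACG stood at positions -75 and -65 of the Tsc22d3 start and at -79 of Klf9 (21.2% of windows), and TATAAA at -44 of the same Tsc22d3 start (14.2%). A match is a description of letters and no match says only that the letters are not in these windows. The windows differed in base composition, from 50.3% G and C with 3 CpG sites at Per1 to 77% with 52 at Fkbp5, where the median of all windows was 51.7% with 7. The count tables give 1 value per gene and do not say which Tsc22d3 start was used.

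Per length of transcript, Tat was the most abundant of the 5 genes in liver and the least in kidney. In TPM (counts divided by transcript length and scaled to a common total), the 27 vehicle livers held between 96.2 and 790 TPM of Tat (median 296), between 7.93 and 58.6 of Klf9 (median 34), between 5.40 and 73.1 of Tsc22d3 (median 17.9), between 5.35 and 48.2 of Fkbp5 (median 10.5) and between 0.518 and 11.8 of Per1 (median 1.82). The lowest Tat and Klf9 values were those of the outlying cohort C liver, and the next lowest were 191 and 12.4. Every vehicle liver held more Tat than any held of the other genes, whereas Klf9, Tsc22d3 and Fkbp5 overlapped over most of their ranges. The 27 kidneys of the same males held a median of 48.7 TPM of Klf9 (20.8 to 81.6), 35.2 of Fkbp5 (15.6 to 75.2), 30.8 of Tsc22d3 (17.9 to 92.2), 7.00 of Per1 (3.44 to 32.9) and 0.117 of Tat (0.0169 to 0.667). In kidney the ranges of Klf9, Fkbp5 and Tsc22d3 overlapped, and Tat lay below all others in every animal.

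**Figure D1:**
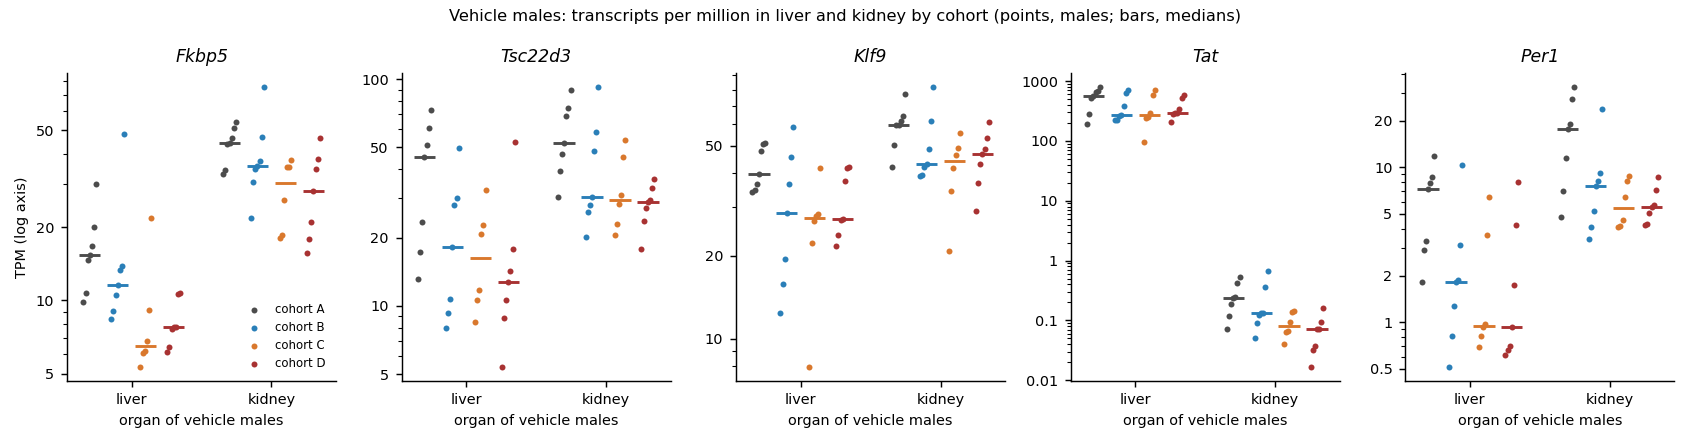
TPM on a log axis in liver and kidney of the vehicle males, by cohort (points are males and bars are medians, with 7 males per cohort and 6 in cohort C). Tat is far higher in liver, with a median of 296 TPM against 0.117, and the other 4 genes have higher medians in kidney on this scale.

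On counts normalized with edgeR's TMM method, which centres the typical gene, 3 of the 5 genes differed between the organs at an adjusted p under 0.1, where 85.3% of the 19292 genes tested did so (40.6% higher and 44.7% lower in liver). Tat was higher in liver by 12.32 on the log2 scale (SE 0.28, adjusted p = 1.79e-40). Fkbp5 was lower in liver (-0.71, SE 0.16, adjusted p = 9.93e-05), as was Per1 (-0.69, SE 0.29, adjusted p = 0.0238), which no longer passed without necropsy date 2 (-0.54, adjusted p = 0.132). The liver minus kidney differences of Tsc22d3 (0.10, SE 0.22) and Klf9 (0.15, SE 0.12) did not pass. Scaled to library totals, where the median of all genes was shifted by -1.01, Tsc22d3 lay at -0.87 and Klf9 at -0.81, so the direction for these genes depends on the scaling. With the animal as a block the same 3 genes passed, with Per1 then at -1.07. The organ cannot be told apart from library preparation or sequencing run.

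Klf9 was the gene that differed clearly with dose: its RNA was lower in high-dose livers than in vehicle or low-dose livers. The lowest, median and highest normalized counts of Klf9 were 1027, 2315 and 4513 in the 27 vehicle livers, 784, 2163 and 3794 in the 28 low-dose livers and 471, 1159 and 3519 in the 28 high-dose livers. The ranges overlapped, but the high-dose median lay close to the lowest vehicle value. Across cohorts, Klf9 fell by 0.84 on the log2 scale between vehicle and high dose (SE 0.16, a 1.79-fold decrease, adjusted p = 2.13e-06 by edgeR's quasi-likelihood test with Benjamini-Hochberg adjustment) and by 0.67 between low and high dose (SE 0.15, adjusted p = 1.46e-04). Between vehicle and low dose its difference of -0.18 (SE 0.16) did not pass (adjusted p = 0.465).

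Tsc22d3 was the other gene that passed. Its normalized counts were 362, 1119 and 5703 (lowest, median, highest) in vehicle, 484, 880 and 5443 in low-dose and 332, 871 and 2778 in high-dose livers, and the 3 ranges overlapped almost wholly apart from the top. The gene fell by 0.54 between vehicle and high dose (SE 0.24, adjusted p = 0.0439). The call was lost without the outlying vehicle liver of cohort C, where Tsc22d3 stood at 3559 (-0.40, adjusted p = 0.127), and without necropsy date 4 (-0.28, adjusted p = 0.425).

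For Fkbp5, Per1 and Tat no dose difference passed with all males, no block and values scaled to the typical gene. Fkbp5 had 706, 1299 and 6618 normalized counts in vehicle, 669, 1411 and 5049 in low-dose and 859, 1729 and 3506 in high-dose livers. Its median was highest at the high dose while its highest value was lowest there, and the difference of 0.18 from vehicle (SE 0.16) had an adjusted p of 0.298. With the litter as a block, which compares males of 1 litter, the Fkbp5 difference was 0.34 and passed (adjusted p = 0.0417), and without necropsy date 4 it was 0.52 (adjusted p = 0.00289). Per1 had 95.2, 250 and 1618 counts in vehicle, 103, 207 and 1782 in low-dose and 150, 282 and 1197 in high-dose livers. With 1 added to each count, the liver with the most Per1 held 16.8 times the count of the one with the least in vehicle, 17.1 times in low-dose and 7.95 times in high-dose livers. Tat had 13934, 25176 and 80354 counts in vehicle, 13000, 26795 and 127489 in low-dose and 6524, 28526 and 61339 in high-dose livers, and its medians differed little beside these ranges. High dose minus vehicle was -0.12 for Tat (SE 0.19, adjusted p = 0.588) and -0.25 for Per1 (SE 0.31, adjusted p = 0.493). Without necropsy date 2 the Per1 difference was -0.64 and passed (adjusted p = 0.0793).

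Counted together, 2 of the 5 genes passed between high dose and vehicle, both lower, where 72.2% of all genes tested passed and 34.4% were lower. Between high and low dose 1 of 5 passed, lower, against 64.8% of all genes and 31.1% lower. Between low dose and vehicle 0 of 5 passed, against 28.4% of all genes, with 0 at an unadjusted p under 0.05 by edgeR (DESeq2 called 0, with 1 at an unadjusted p under 0.05). The gene nearest to a call there was Tsc22d3, at -0.48 (SE 0.24, adjusted p = 0.155), and it passed with the necropsy date as a block (-0.48, adjusted p = 0.0913), without date 1 (-0.62, adjusted p = 0.0986) and without date 2 (-0.66, adjusted p = 0.0509). Klf9 passed without date 2 (-0.41, adjusted p = 0.0729) and Fkbp5 without date 4 (0.36, adjusted p = 0.0834). The median difference between high dose and vehicle was -0.25 over the 5 genes and 0.01 over all genes. Directions here are relative to the typical gene: scaled to library totals, where the median of all genes rose by 0.62 between vehicle and high dose, Fkbp5 was at 0.80 (adjusted p = 4.50e-06), Tat at 0.46 (adjusted p = 0.0173), Per1 at 0.40, Tsc22d3 at 0.06 and Klf9 at -0.28 (adjusted p = 0.0718). Klf9 alone kept its direction and its call against vehicle on both scales, and between low and high dose on library totals it was at -0.25 (adjusted p = 0.104). For the same reason the TPM medians of Fkbp5 (10.5 in vehicle, 21.2 at high dose) and Tat (296 and 515) stand higher at the high dose, while that of Klf9 is lower (34 and 24.5).

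**Figure D2:**
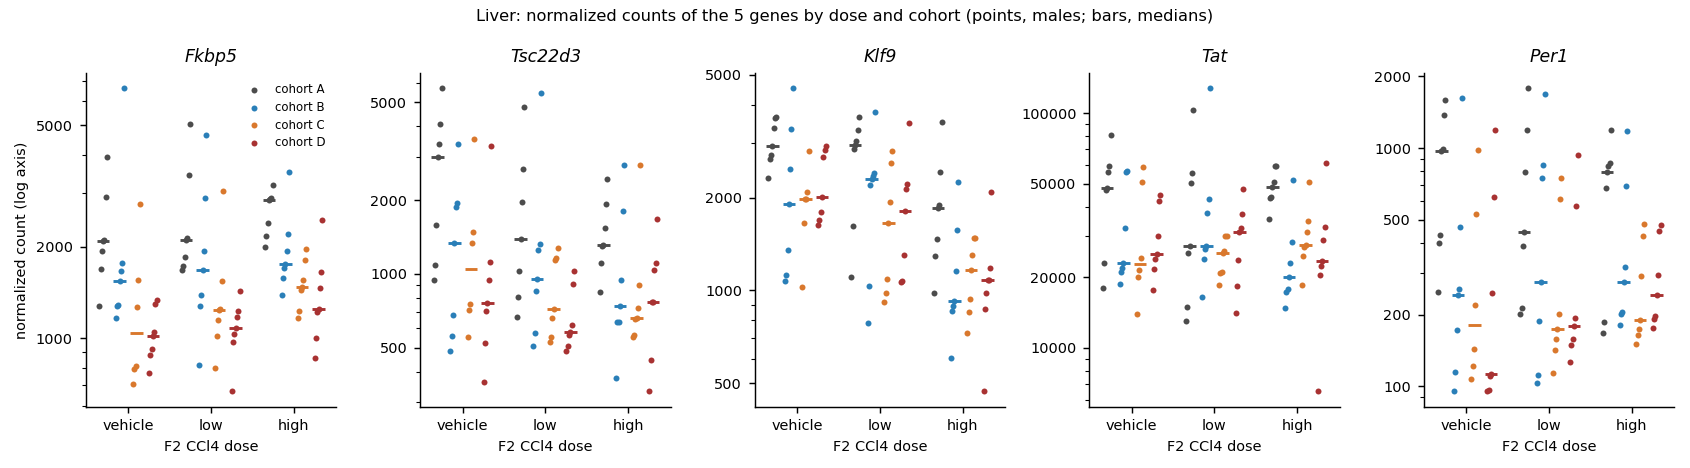
Normalized counts in liver on a log axis by F2 dose and cohort (points are males and bars are group medians). Klf9 shows lower medians at the high dose in all 4 cohorts, and the medians of Fkbp5 in cohorts A and B lie above those in cohorts C and D at every dose.

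Within the cohorts, the Klf9 difference between high dose and vehicle passed in all 4. Its medians in vehicle and high-dose livers were 2930 and 1855 in cohort A, 1904 and 922 in cohort B, 1974 and 1161 in cohort C and 2002 and 1084 in cohort D. The ranges of the vehicle and high-dose groups overlapped in every cohort. On the log2 scale the fall was by 0.66 in cohort A (adjusted p = 0.0748), by 0.94 in B (adjusted p = 0.00937), by 0.76 in C (adjusted p = 0.0482) and by 1.01 in D (adjusted p = 0.0059). With the litter as a block only cohorts B and D passed, without necropsy date 1 and on library totals only cohort D did, without necropsy date 2 and with no filter on low counts cohorts B, C and D did, and without necropsy date 4 only cohort A did.

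These were the calls among the 40 tests of the 5 genes within cohorts at either dose. Other genes passed there when a date was left out, namely Tat in cohort B without date 2 (-0.89, adjusted p = 0.0644) and, without date 4, Per1 in B (1.54, adjusted p = 0.0906) and Fkbp5 in D (0.75, adjusted p = 0.0484), all between high dose and vehicle. Scaled to library totals, where the median of all genes rose by 0.73, 0.66, 0.51 and 0.63 between vehicle and high dose in cohorts A to D, 5 of the 40 passed. They were Klf9 in D (-0.53, adjusted p = 0.0994) and, higher at the high dose, Fkbp5 in A (0.89, adjusted p = 0.0103), C (0.76, adjusted p = 0.0425) and D (1.03, adjusted p = 0.00338) and Tat in A (0.72, adjusted p = 0.0696). The share of all genes that passed between high dose and vehicle was 49.2% in cohort A (22% lower), 55% in B (25.9% lower), 47.9% in C (24.4% lower) and 51.1% in D (23.1% lower), against 1 of 5 genes here in each. Between low dose and vehicle 0 of 5 passed in any cohort, against 6.28% of all genes in cohort A, 6.44% in B, 10.3% in C (5.55% without the outlying cohort C vehicle liver) and 7.4% in D, and none had an unadjusted p under 0.05 by edgeR or DESeq2. In the joint test of the cohort by dose interaction 0 of 5 passed (0 at an unadjusted p under 0.05, and 0 by DESeq2), against 0.0105% of all genes, with an adjusted p of 1 for each of the 5.

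By the treatment of the F0 grandsire, all 5 genes had lower liver medians in descendants of treated males, at each dose. These values are described and not tested, because the list that supplied the identifiers was chosen on the F0 effect in these same livers. Fkbp5 ranged from 1164 to 6618 in the 14 vehicle livers of cohorts A and B (median 1725) and from 706 to 2765 in the 13 of cohorts C and D (median 1016). Only 1 of the 13 lay above the median of the 14, and 0 of the 14 lay below the median of the 13. The medians of Fkbp5 were 1889 and 1163 in low-dose livers and 2191 and 1448 in high-dose livers, with 1 of 14 descendants of treated F0 males above the other median each time. Group by group, the medians in cohorts A, B, C and D were 2093, 1536, 1038 and 1016 in vehicle, 2095, 1673, 1241 and 1084 in low-dose and 2842, 1756, 1470 and 1251 in high-dose livers, in the same order at each dose.

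Tsc22d3 ranged from 487 to 5703 in the vehicle livers of cohorts A and B (median 1731) and from 362 to 3559 in those of C and D (median 758), and 2 of the 13 lay above the median of the 14. Per1 ranged from 95.2 to 1618 (median 416) and from 95.5 to 1187 (median 143). Of the 13 livers of C and D, 4 held more Per1 than the median of A and B, and 2 of the 14 of A and B held less than the median of C and D. At the high dose 0 of 14 descendants of treated males had more Per1 than the median of the others (496), and their own median was 220. Klf9 had vehicle medians of 2705 and 1976, with ranges of 1069 to 4513 and 1027 to 2939. Tat had vehicle medians of 39724 and 24197, but low-dose medians of 27241 and 25667, the smallest ratio of any gene and dose (1.06). Over all 83 livers, with F1 treatment and dose in the fit, the F0 difference was -0.92 for Per1 (SE 0.25), -0.82 for Fkbp5 (SE 0.12), -0.80 for Tsc22d3 (SE 0.19), -0.44 for Tat (SE 0.16) and -0.39 for Klf9 (SE 0.13), with a median of -0.80 over the 5 genes and 0.02 over all genes. The SEs of this fit take males as independent, although the treatment was given to the F0 sires, from 17 of which the males descend. They may therefore be too small for a difference between sires. The median of the 5 was -0.70 in vehicle, -0.89 in low-dose and -0.50 in high-dose males alone, and -0.83 without the outlying library. Adgre1 had a difference of -0.30 (SE 0.08) in the same fit, and its part in these values was not tested.

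The F0 difference was also fitted on each of the 4 necropsy dates alone. Fkbp5 was at -0.67, -0.69, -0.83 and -1.02 on dates 1 to 4. On date 3, with 6 males of each kind, its counts were 1164 to 2174 without and 669 to 1246 with a treated F0 male. These ranges overlapped only at their edges. Per1 was at 0.37, -1.95, 0.59 and -1.41 on dates 1 to 4, in this fit below 0 on dates 2 and 4 alone. On date 2 its medians were 1187 without and 219 with a treated F0 male. On date 1 the sign of Per1 depended on the measure: the mean log2 difference was -0.02, and the medians were 210 without and 196 with a treated F0 male. Tsc22d3 was at -0.06, -1.23, -0.36 and -0.80. Tat (0.11, -1.20, 0.13 and -0.40) and Klf9 (-0.23, -0.47, 0.08 and -0.61) also had their largest negative values on dates 2 and 4. The median of the 5 genes was -0.06 on date 1 (3 of 5 below 0), -1.20 on date 2 (5 of 5), 0.08 on date 3 (2 of 5) and -0.80 on date 4 (5 of 5). Whether the F0 difference itself differed between dates was not tested.

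**Figure D3:**
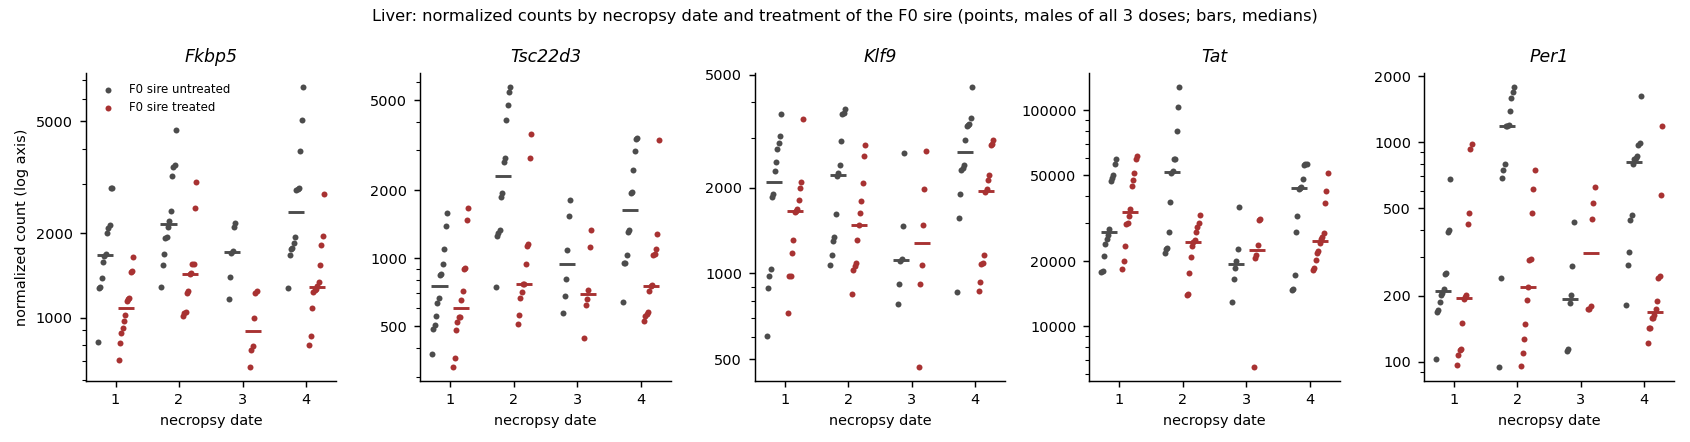
Normalized counts in liver on a log axis by necropsy date and treatment of the F0 male, all 3 doses together (points are males and bars are medians; 12 and 12, 12 and 11, 6 and 6, and 12 and 12 males on dates 1 to 4). Fkbp5 has the lower median in descendants of treated F0 males on every date. Per1 has the lower median in them on dates 2 and 4 by a wide margin (1187 against 219 on date 2) and on date 1 by little (210 against 196). On date 3 Per1 has the higher median in them.

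The kidneys of the 27 vehicle males allowed the F0 effect to be tested in another organ of the same animals, and it passed for 0 of the 5 genes, against 0.0109% of the 18374 genes tested. All 5 had an unadjusted p under 0.05 by edgeR, against 8.7% of all genes, as by DESeq2, which also called 0 of 5 (0.419% of all genes). Per1 ranged from 334 to 3083 (median 889) in the 14 kidneys of cohorts A and B and from 392 to 910 (median 556) in the 13 of C and D. Of the 13 kidneys, 1 lay above the median of the 14, and 3 of the 14 lay below the median of the 13. Fkbp5 had medians of 3537 and 2661 (2114 to 5769 and 1327 to 4097), Tsc22d3 of 2165 and 1248 (855 to 3600 and 763 to 2378) and Klf9 of 2802 and 2100 (1870 to 3823 and 1016 to 2837), and all these ranges overlapped. The differences were -0.99 for Per1 (SE 0.28, adjusted p = 0.313), -0.65 for Tsc22d3 (SE 0.20, adjusted p = 0.346), -0.52 for Fkbp5 (SE 0.19, adjusted p = 0.447) and -0.31 for Klf9 (SE 0.13, adjusted p = 0.512). Tat, with 1 to 36 counts per kidney library, was at -1.53 (SE 0.38, adjusted p = 0.237), a value that rests on few counts. Since the kidneys and vehicle livers are from the same males, the direction in kidney is not an independent repeat of that in liver. The list that supplied the identifiers was chosen on the F0 effect in livers that include those of these males. The 5 unadjusted p-values are therefore not independent of that choice, and their comparison with 8.7% of all genes lends no support.

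The treatment of the F1 sire gave no call. In liver 0 of 5 genes passed, against 0.2% of all genes tested, with 2 of 5 at an unadjusted p under 0.05 by edgeR (10.3% of all genes) and by DESeq2, which called 0. All 5 differences were below 0, from -0.20 for Klf9 (SE 0.13) to -0.41 for Tsc22d3 (SE 0.19, adjusted p = 0.456), with a median of -0.26 against 0 over all genes. Liver medians without and with a treated F1 sire were 1807 and 1318 for Fkbp5, 1134 and 768 for Tsc22d3, 1933 and 1661 for Klf9, 30066 and 24585 for Tat and 398 and 224 for Per1, and the ranges of the 41 and 42 livers overlapped almost wholly. Without necropsy date 2 the difference of Per1 was 0.04. In kidney 0 of 5 passed (0% of all genes did), with 2 of 5 at an unadjusted p under 0.05 (6.67% of all genes), and the differences ran from -0.13 for Klf9 (SE 0.13) to -0.59 for Per1 (SE 0.28, adjusted p = 0.734).

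By necropsy date, in contrast, livers of the same group differed. Among the vehicle males each litter fell on a single date, so date and litter cannot be told apart there. In a fit with group and date, 2 of the 5 genes passed, against 7.16% of all genes: Tsc22d3 (adjusted p = 0.00106) and Fkbp5 (adjusted p = 0.00527). All 5 had an unadjusted p under 0.05, against 19.8% of all genes, and DESeq2 called 4, against 7.62%. As the mean deviation from the group mean, Tsc22d3 stood at -0.56 ± 0.64 on date 1 (log2, SD, n = 24), 0.56 ± 0.79 on date 2 (SD, n = 23), -0.28 ± 0.64 on date 3 (SD, n = 12) and 0.17 ± 0.69 on date 4 (SD, n = 24). Its normalized counts on dates 1 and 2 ranged from 332 to 1669 and from 510 to 5703, so the high values were found on date 2 and not on date 1. Per1 was at -0.45 on date 1 and 0.49 on date 2, with larger spreads (SD 1.0 and 1.07), and did not pass (adjusted p = 0.136). In vehicle livers alone Per1 stood at -0.53, -0.25, 0.19 and 0.66 on dates 1 to 4, and Tsc22d3 at -0.85, 0.63, -0.32 and 0.46. Fkbp5 was at -0.23, 0.20, -0.36 and 0.22 on dates 1 to 4. Klf9 (adjusted p = 0.107) and Tat (adjusted p = 0.136) were lowest on date 3, at -0.47 and -0.58. In kidney 0 of 5 genes passed for date (0% of all genes did, and DESeq2 called 0), with 3 of 5 at an unadjusted p under 0.05 by edgeR (5.3% of all genes) and adjusted p-values from 0.91 to 0.911.

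The genes also varied widely between males. Between the lowest and the highest of the 27 vehicle livers, all cohorts together and with 1 added to each count, lay 16.8-fold for Per1, 15.7-fold for Tsc22d3, 9.36-fold for Fkbp5, 5.77-fold for Tat and 4.39-fold for Klf9. These folds include differences between cohorts and dates. Within cohort D alone Tsc22d3 ran from 362 to 3316, and within cohort B Fkbp5 ran from 1164 to 6618. The outlying cohort C liver set the lowest Tat (13934, next 17643) and Klf9 (1027, next 1069). Within groups the SD on the log2 scale was 1.30 for Per1 and 1.01 for Tsc22d3 in vehicle livers, 1.25 and 0.832 in low-dose livers and 0.888 and 0.793 in high-dose livers. The SDs still contain date. With date removed as well, those of Per1 and Tsc22d3 were 1.27 and 0.801 in vehicle livers. The spread of Fkbp5 was 0.641 in vehicle, 0.615 in low-dose and 0.378 in high-dose livers. These SDs were not compared by a test. Necropsy date took up 45.6% of the within-group variance of Tsc22d3 and 16.2% of that of Per1 in vehicle livers, where 13% would fall to 4 dates with no effect.

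The deviations of the genes from their group means were compared between animals, at each dose. Among the 10 pairs of genes, Pearson's r passed an adjusted p of 0.05 (permutation of animals within groups) for 4 pairs in vehicle livers, 10 in low-dose livers, 0 in high-dose livers and 1 in kidneys. The median r over the 10 pairs was 0.38 in vehicle (0.105 to 0.741), 0.655 in low-dose (0.463 to 0.845) and 0.42 in high-dose livers (0.187 to 0.482), and 0.224 in kidneys (-0.098 to 0.816). In all 3 doses every pair of liver deviations had r above 0. Of all pairs of the 12254 genes that averaged over 50 normalized counts, 18.8% had an r of at least 0.38 in vehicle, 1.99% an r of at least 0.655 in low-dose and 16% an r of at least 0.42 in high-dose livers, and 28.6% of the pairs of 12885 kidney genes reached 0.224. About as many pairs lay above 0 as below it in each set (49.8% to 50.9% above). With the date means removed as well, the medians were 0.359, 0.564, 0.307 and 0.133, and 3, 9, 2 and 1 pairs passed. Whether r differed between doses was not tested. In low-dose livers, 6 of the 28 males had all 5 genes above their group means and 6 had none, against 3 and 4 of 27 vehicle males and 2 and 1 of 28 high-dose males.

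Tsc22d3 and Per1 were the most tightly linked pair. In vehicle livers r was 0.741 (permutation p = 4e-05, adjusted p = 4e-04, n = 27) and Spearman's rho 0.71 (permutation p = 1.3e-04). Without the 2 males farthest from the median r was 0.757, and it was 0.819, 0.682 and 0.972 within dates 1, 2 and 4 (8, 7 and 8 males, date 3 holding too few). The 2 genes deviated in the same direction in 22 of 27 vehicle males. In low-dose livers r was 0.845 (permutation p = 1e-05, the smallest the permutations can give, adjusted p = 1e-04, n = 28), rho 0.755 (permutation p = 2e-05) and r without the 2 farthest males 0.817, with the same direction in 27 of 28 males. In high-dose livers r was 0.482 (permutation p = 0.0111, adjusted p = 0.0555, n = 28), rho 0.404 (permutation p = 0.0419) and r without the 2 farthest males 0.281. In kidneys r was 0.816 (permutation p = 1e-05, adjusted p = 1e-04, n = 27), rho 0.819 (permutation p = 1e-05), r without the 2 farthest males 0.768 and the same direction in 26 of 27 males.

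Other pairs held less firmly. In vehicle livers Klf9 and Per1 had r = 0.598 (permutation p = 0.00199, adjusted p = 0.00995, n = 27) and rho = 0.582 (permutation p = 0.00351), Tat and Per1 r = 0.517 (permutation p = 0.00705, adjusted p = 0.0235) and rho = 0.559 (permutation p = 0.00406), and Fkbp5 and Klf9 r = 0.528 (permutation p = 0.0148, adjusted p = 0.0371) and rho = 0.355 (permutation p = 0.0802). Without the 2 farthest males r was 0.445, 0.405 and 0.192, and none of the 3 passed. The rank correlations of Klf9 and Per1 and of Tat and Per1 passed over all 27 males (permutation, adjusted p = 0.0135 for both), while that of Fkbp5 and Klf9 did not (permutation, adjusted p = 0.134). Within dates 1, 2 and 4, Fkbp5 and Klf9 had r of -0.317, -0.184 and 0.77, so the pooled value did not hold within dates 1 and 2. In low-dose livers Tsc22d3 and Tat had r = 0.755 (permutation p = 2.5e-04, adjusted p = 5.4e-04, n = 28), rho = 0.622 (permutation p = 0.00183) and r = 0.533 without the 2 farthest males, with 0.716, 0.901 and 0.542 within dates. The other 8 low-dose pairs had r from 0.463 to 0.687 and rho from 0.473 to 0.726, and 3 of the 10 pairs no longer passed without the 2 farthest males. In kidney Tat, at 1 to 36 counts, had r between -0.098 and 0.083 with the other genes.

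**Figure D4:**
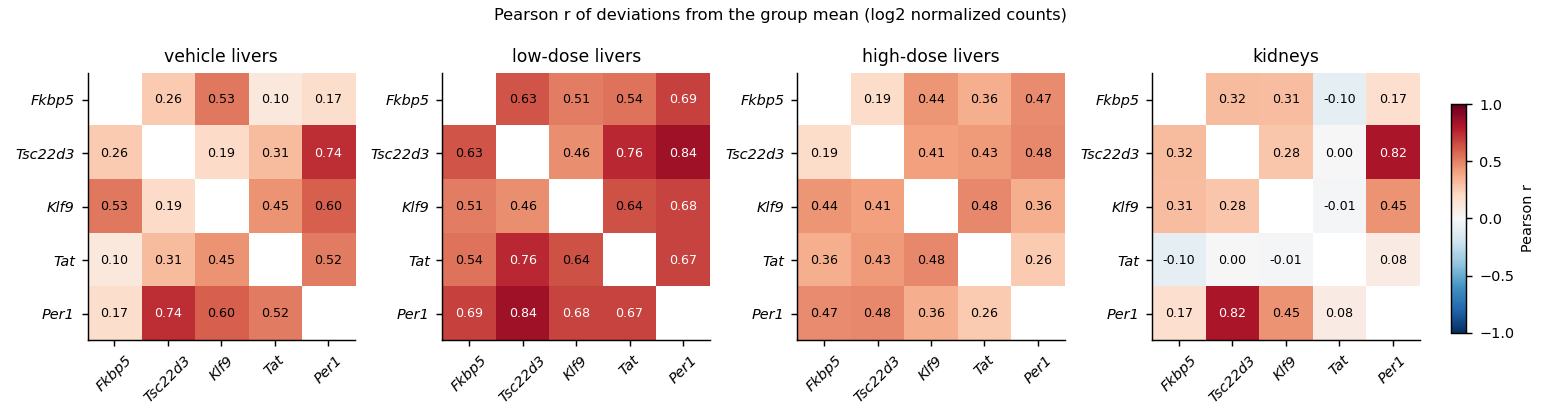
Pearson r of each pair of genes, from deviations of log2 normalized counts from the group mean, in vehicle livers (27 males), low-dose livers (28), high-dose livers (28) and kidneys (27), coloured from -1 (blue) to 1 (red). Tsc22d3 and Per1 have the highest r in vehicle livers, low-dose livers and kidneys, and kidney Tat has r near 0 with each other gene.

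Of the 5 genes, 3 deviated together in liver and kidney of the same male, across 5 relations tested. Over the 11372 genes that averaged over 50 normalized counts in both organs the median r was 0.007, and 1.07% reached 0.709, the lowest of the 3. Tsc22d3 had r = 0.902 (permutation p = 1e-05, adjusted p = 2.5e-05, n = 27) and rho = 0.922 (permutation p = 1e-05), with r = 0.919 without the 2 farthest males and 0.916, 0.82 and 0.855 within dates 1, 2 and 4. Its liver and kidney deviations had the same sign in 25 of 27 males. Per1 had r = 0.847 (permutation p = 1e-05, adjusted p = 2.5e-05, n = 27), rho = 0.844 (permutation p = 1e-05), r = 0.819 without the 2 farthest males and 0.811, 0.959 and 0.867 within dates. Fkbp5 had r = 0.709 (permutation p = 2e-05, adjusted p = 3.33e-05, n = 27), rho = 0.694 (permutation p = 1.1e-04), r = 0.616 without the 2 farthest males and 0.53, 0.75 and 0.775 within dates. Klf9 (r = 0.308, permutation p = 0.195, adjusted p = 0.243; rho = 0.27, permutation p = 0.229) and Tat (r = -0.203, permutation p = 0.332, adjusted p = 0.332; rho = -0.155, permutation p = 0.467) did not pass, and without the 2 farthest males r was 0.112 and -0.37. As an example, 1 cohort B vehicle male held the highest vehicle liver values of Fkbp5 (6618), Klf9 (4513) and Per1 (1618), and its kidney held the highest of all 27 kidneys for Fkbp5 (5769), Tsc22d3 (3600) and Klf9 (3823).

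**Figure D5:**
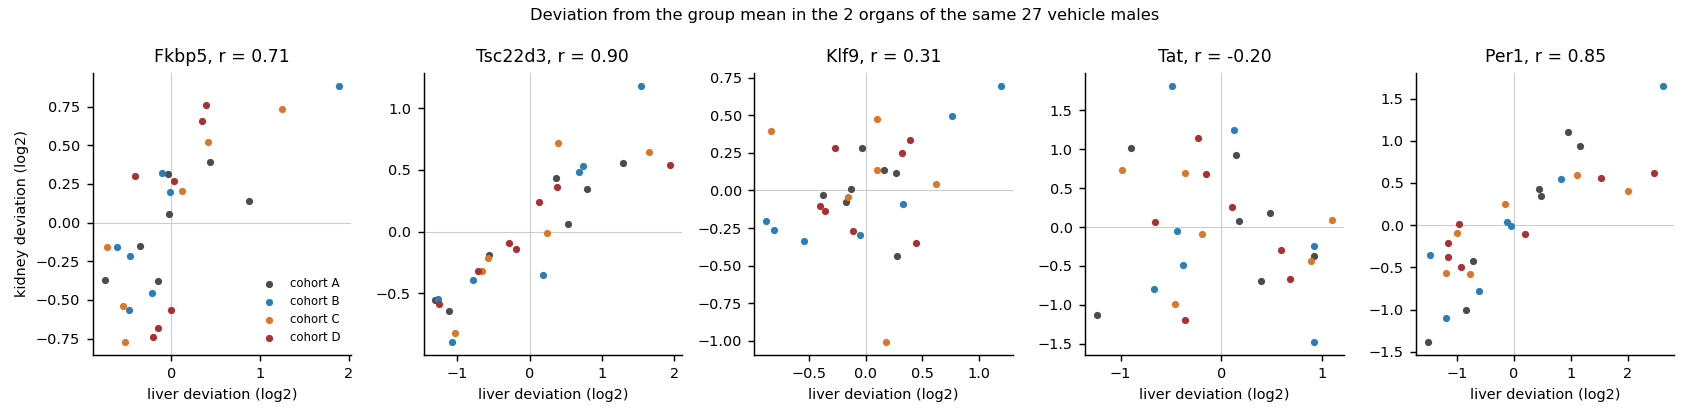
Deviation from the group mean (log2) in kidney against that in liver for the 27 vehicle males, coloured by cohort, with 1 panel per gene. Points of Tsc22d3, Per1 and Fkbp5 rise together (r = 0.90, 0.85 and 0.71), and those of Klf9 and Tat scatter (r = 0.31 and -0.20).

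Among the 12253 liver genes that averaged over 50 normalized counts, the genes whose deviations over the 83 livers were most like those of each member were named, as a description with no test, since all share the same libraries. For Tsc22d3 these were Zfp354a (r = 0.853), Ip6k2 (0.784) and Usp2 (0.768), and Per1 ranked 8 with 0.712. For Per1 they were Rasgef1b (0.803), Klf13 (0.751) and Usp2 (0.742), and Tsc22d3 ranked 6. Usp2, a deubiquitinase of clock proteins, thus stood near the top for both. For Fkbp5 they were Ube2g2 (0.719), Acer2 (0.709), Edem1 (0.685), Sdc4 (0.684) and Lpin1 (0.681), and the nearest of the other 4 members, Klf9, ranked 62 with 0.489. For Klf9 the named genes were Srsf4 (0.791) and Klf13 (0.748), and for Tat Noct (0.732), named for its daily rhythm, Mfsd2a (0.718) and Rasgef1b (0.661). The other places among the 5 nearest genes of each member went to Sdc4 for Tsc22d3 (0.741), to Tcim for Per1 (0.714) and to identifiers with no symbol in the list. For comparison, the median r over all genes lay between -0.022 and 0.043 for the 5 members and the 95th percentile between 0.242 and 0.451. Not every member was near every other: for Tsc22d3, Fkbp5 (0.37) ranked 929 and Klf9 (0.35) ranked 1149, both under its 95th percentile of 0.401, and for Klf9, Tsc22d3 ranked 1533, under 0.451.

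Of 21 other genes listed as induced by glucocorticoids, 3 had an identifier, all from the same list: Zbtb16, a zinc finger repressor, Lpin1, a phosphatidate phosphatase of fat synthesis, and Cdkn1a, the p21 cell cycle inhibitor. Between high dose and vehicle Zbtb16 fell by 1.08 (SE 0.35, adjusted p = 0.00457) and Lpin1 by 0.47 (SE 0.22, adjusted p = 0.0502), and Cdkn1a (-0.15) did not pass, so 2 of 3 were lower, against 34.4% of all genes. Scaled to library totals Zbtb16 was at -0.47 (adjusted p = 0.2), Lpin1 at 0.12 (adjusted p = 0.595) and Cdkn1a at 0.46 (adjusted p = 0.05), so that both calls were lost there, the direction of Lpin1 turned and Cdkn1a passed. Without necropsy date 4 none of the 3 passed (Zbtb16 -0.65, adjusted p = 0.207, and Lpin1 -0.14, adjusted p = 0.667), and Lpin1 did not pass without date 1 (-0.40, adjusted p = 0.166). Between low dose and vehicle 0 of 3 passed, against 28.4% of all genes, with Cdkn1a at -0.48 (adjusted p = 0.104) and alone under an unadjusted p of 0.05. Cdkn1a passed by DESeq2 (adjusted p = 0.0623), with the necropsy date as a block (-0.51, adjusted p = 0.0365), with the litter as a block (-0.51, adjusted p = 0.07) and without date 1 (-0.54, adjusted p = 0.0628) or date 2 (-0.70, adjusted p = 0.0516). Zbtb16 passed with the litter as a block (-0.64, adjusted p = 0.0875) and without date 2 (-0.94, adjusted p = 0.0764). For necropsy date 3 of 3 passed in liver, against 7.16% of all genes, Zbtb16 with an adjusted p of 8.71e-06. For the F0 effect in kidney 0 of 3 passed, against 0.0109% of all genes, with Zbtb16 at -2.12 (SE 0.52, adjusted p = 0.237), Cdkn1a at -1.26 (SE 0.32, adjusted p = 0.28) and Lpin1 at 0.03. The first 2 had an unadjusted p under 0.05 and passed by DESeq2 (adjusted p = 0.0212 for Zbtb16 and 0.0573 for Cdkn1a). By edgeR Zbtb16 also passed with the necropsy date as a block (-2.22, adjusted p = 0.0283) and without the kidney of the male with the outlying liver (-2.52, adjusted p = 0.0735). It did not pass with the F0 sire as a correlated block (-2.31, adjusted p = 0.315) or without any 1 of the 4 dates (adjusted p = 0.38, 0.633, 0.249 and 0.875 without dates 1 to 4). The list that supplied these identifiers was chosen on the F0 effect in livers of the same males, so that these kidney values are not independent of it. For the F1 effect 0 of 3 passed in liver (against 0.2% of all genes) or kidney (against 0%) by edgeR or DESeq2, with Zbtb16 and Lpin1 in liver and Zbtb16 in kidney at an unadjusted p under 0.05 by edgeR. All 3 were higher in liver than in kidney, against 40.6% of all genes, Lpin1 by 3.67 on the log2 scale (SE 0.16), but on library totals Zbtb16 was at 0.18 and did not pass (adjusted p = 0.624).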

How the data were processed

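The authors made stranded mRNA libraries, sequenced them as read pairs, estimated transcript abundance with Salmon 0.14.0 and summed it per gene with tximport in R 3.5.0, per the labels and the study's methods. The deposited values are estimated counts per gene, rounded to whole numbers and not normalized, with average transcript lengths (deposited per gene and sample) that served here for TPM and as offsets. No sample was dropped or imputed unless stated. Any gene whose counts summed to more than 10 over some group was tested in R 4.3.3 with edgeR 4.0.16 (TMM, quasi-likelihood F test, Benjamini-Hochberg over all genes tested, called at an adjusted p under 0.1). A normalized count is a count divided by the library's relative TMM-scaled size, within an organ. Dose, interaction and organ effects were contrasts of group means; the F0 and F1 treatments entered as terms together with dose. Correlations used log2 normalized counts (pseudocount 1) less the group mean, with 100000 permutations of males within groups, two-sided. The liver and kidney of 1 animal pair by origin, and the fit with the animal as a block is given beside the organ contrast. Each sample of an organ is a separate animal. The tests were checked on simulated data. Alternatives were DESeq2 1.42.0, other scalings, filters, blocks (limma 3.58.1 for the F0 sire) and leaving out dates or a library. Named genes are the 5 members, the members of gene lists that have an identifier and the 5 genes most like each member. The members and lists were chosen with earlier results of these data known. No listed stellate cell, endothelium, cholangiocyte or adrenal cortex marker had an identifier. The files hold no coordinates, and hormone levels were not analysed here.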

Additional observations from a re-analysis of the deposited data

Results flagged for a closer look

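Of 80 combinations of gene, organ and group, 4 held a male far from the others by Dixon's criterion at the 95% level, where chance gives about 1 in 20. Fkbp5 had 6618 normalized counts in 1 vehicle liver of cohort B, where the other 6 lay between 1164 and 1764. Tsc22d3 had 5443 in 1 low-dose liver of cohort B, against 506 to 1328 in the other 6, and 2778 in 1 high-dose liver of cohort C, against 554 to 900. Klf9 had 1016 in 1 vehicle kidney of cohort C, below the 1986 to 2837 of the other 5. None of the 4 was the library that stood apart on the first principal component.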

How the results depend on the processing

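With n of 7 per group and this spread, small effects on Per1 and Tsc22d3 were not detectable, kidney Tat is limited by its 1 to 36 counts, and the F0, F1 and date effects rest on 4 dates and 17 F0 sires. Causes of the changes below were not tested. Of 949 alternative values other than counts of calls, 845 kept direction and side of the threshold, 48 turned, 25 passed newly, 15 no longer passed and 16 moved beyond the SE. With DESeq2 4 genes passed for date in liver. On library totals 2 passed between high and low dose and 5 between the organs, and 2 pairs in high-dose livers, as with variance-stabilized values and with date means removed (2 each). Without the outlying library 1 gene passed between high dose and vehicle. With the date as a block 1 gene, Tsc22d3, passed between low dose and vehicle, as without date 1 (1 gene) and date 4 (1 gene, Fkbp5), and 2 without date 2. The litter as a replicate block left 2 calls within cohorts, and leaving out date 1 left 1. A log2 fold over 1 left 0, 0 and 1 calls for high dose against vehicle, against low dose and within cohorts. Without the 2 farthest males 1 pair passed in vehicle livers and 2 in kidneys.

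Values that turned were near 0 in most cases. On library totals they were 0.10 (Tat) and 0.13 (Per1) for low dose against vehicle, 0.06 (Tsc22d3), 0.46 (Tat) and 0.40 (Per1) for high dose against vehicle, 0.36 (Tsc22d3), 0.36 (Tat) and 0.26 (Per1) for high against low dose, and -0.87 (Tsc22d3) and -0.81 (Klf9) for liver against kidney. For Tsc22d3, high against low dose was at 0.02 with the date as a block, 0.02 with the litter as a replicate block and 0.17 without date 2, and liver against kidney was at -0.01 with the date as a block, -0.11 with the animal as a replicate block (pairing the organs of 1 male), -0.05 without date 2 and -0.01 without date 4. For Tat, high against low dose was at 0.06 with the litter as a block, 0.07 without date 2 and 0.005 without date 4, low dose against vehicle at 0.02 without date 1 and 0.12 without date 4, and high dose against vehicle at 0.13 without date 4. For Per1, high against low dose was at 0.06 and the F1 effect in liver at 0.04 without date 2, low dose against vehicle at 0.11 without date 3 and 0.47 without date 4, and high dose against vehicle at 0.28 without date 4. Fkbp5 was at -0.20 for low dose against vehicle without date 2.

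Among pairs, r of Fkbp5 and Tat in vehicle livers was -0.14 with date means removed and -0.08 without the 2 farthest males, of Fkbp5 and Per1 -0.02 and -0.05, and of Fkbp5 and Tsc22d3 in high-dose livers -0.03 without the 2 farthest. In kidneys r was 0.05 (Fkbp5 and Tat), -0.02 (Fkbp5 and Per1) and 0.04 (Klf9 and Tat) with date means removed, -0.06 (Fkbp5 and Per1) and 0.19 (Klf9 and Tat) without the 2 farthest, and -0.0005 (Tsc22d3 and Tat) and 0.003 (Klf9 and Tat) with length offsets. For Tsc22d3 and Tat it was -0.06 with variance-stabilized values and -0.05 without the kidney of the male with the outlying liver. The F0 median of the 5 genes in liver, -0.80, was -0.50 in high-dose males alone, -0.06 on date 1, -1.20 on date 2 and 0.08 on date 3, where Tat and Per1 were at 0.11 and 0.37 (date 1) and Klf9, Tat and Per1 at 0.08, 0.13 and 0.59 (date 3). The alternatives changed no count of calls for the interaction, the F1 effects, or the F0 and date effects in kidney, and the animal as a block changed no call between the organs.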
